A study of Mus musculus with 6 samples.

Results

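The genes described here encode 10 enzymes that build and remodel the phospholipids of cell membranes: Chka, Pcyt1a, Chpt1, Pcyt2, Cept1, Pemt, Ptdss1, Ptdss2, Lpcat1 and Lpcat3. They were chosen by symbol. Every probe set paired with exactly 1 gene symbol in the platform's annotation was taken if that symbol was one of the 10, which gave 32 probe sets for 10 genes of 18194 genes on the array. Total RNA came from epididymal white adipose tissue of 10-week-old males on a C57BL6;SJL background, with 1 mouse per Affymetrix MOE430v2.0 array. The transgenic group (3 mice, labelled MUT) carried aP2-nSREBP1c, which expresses the nuclear form of SREBP-1c, an activator of lipid synthesis genes, from the aP2 (Fabp4) promoter. That promoter is active mainly in fat cells and also in some macrophages. The labels call these mice lipodystrophic and spell the transgene differently on each of the 3. The controls were 3 wild type males (WT), described as litter-matched. No treatment is given for either group, and the sources used here do not say whether the transgenic mice came from 1 founder line.

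Phosphatidylcholine and phosphatidylethanolamine, the main phospholipids of animal membranes, are made by parallel branches. A kinase phosphorylates choline or ethanolamine, a CTP-dependent enzyme activates the product, and a transferase joins it to diacylglycerol, which fat cells also use to make triglyceride. Finished phospholipids are then exchanged for serine, methylated, or given a new acyl chain by lysophospholipid acyltransferases. Phosphatidylcholine also coats lipid droplets, and Pcyt1a, the rate-setting enzyme of its synthesis, moves to droplets that lack it.

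SREBP proteins bind a short element known as the sterol regulatory element, so the sequences before the start sites are shown for Pcyt1a, Lpcat3 and Chka, the members that passed the test when transgenic replicate 2 was left out. Each run is the 250 bases before the most upstream start in RefSeq's annotation of GRCm38.p6, written 5′ to 3′ on the gene's strand. Capitals mark matches, on either strand, to the sterol regulatory element TCACNCCAC, the E-box CACGTG, the NF-Y box CCAAT or the GC box GGGCGG, which may overlap.
Pcyt1a, chr16:32430671-32430920, plus strand: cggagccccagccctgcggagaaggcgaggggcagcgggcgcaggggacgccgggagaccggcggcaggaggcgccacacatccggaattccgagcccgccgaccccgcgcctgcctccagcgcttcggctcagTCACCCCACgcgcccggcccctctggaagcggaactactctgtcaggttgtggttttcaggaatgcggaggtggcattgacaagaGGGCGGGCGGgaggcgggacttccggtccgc
Lpcat3, chr6:124662854-124663103, plus strand: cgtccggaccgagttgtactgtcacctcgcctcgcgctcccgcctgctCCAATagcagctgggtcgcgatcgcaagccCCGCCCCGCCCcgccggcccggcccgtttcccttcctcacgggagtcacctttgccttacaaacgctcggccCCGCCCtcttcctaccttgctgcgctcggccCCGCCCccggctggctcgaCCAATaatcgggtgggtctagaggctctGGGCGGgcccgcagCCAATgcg
Chka, chr19:3851523-3851772, plus strand: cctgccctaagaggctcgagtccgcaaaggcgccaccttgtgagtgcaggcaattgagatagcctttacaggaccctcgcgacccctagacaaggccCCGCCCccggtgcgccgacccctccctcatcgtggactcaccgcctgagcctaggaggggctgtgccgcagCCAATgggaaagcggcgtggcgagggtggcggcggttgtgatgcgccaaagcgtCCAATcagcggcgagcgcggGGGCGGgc
The Pcyt1a window holds the run TCACCCCAC, which begins 116 bases before the start, and 2 overlapping GC boxes. The annotation gave 32851 windows of 250 bases, with alternative starts of a gene included. Of these, 1.05% hold a match to TCACNCCAC, 6.02% an E-box, 33.8% an NF-Y box and 32.7% a GC box. Shares over the most upstream windows alone were not counted. The Lpcat3 window holds 3 NF-Y boxes, at 202, 50 and 8 bases before the start, and 5 GC boxes. The Chka window holds 2 NF-Y boxes and 2 GC boxes. Of the 8 members with a window, Pcyt1a is the 1 whose most upstream window holds the sterol element and 0 hold the E-box. An NF-Y box is in the most upstream window of 4 of these 8, and a GC box in that of 6. The window of Chpt1, which did not pass, holds 1 NF-Y box and 5 GC boxes. A match describes letters and does not show a binding site, and a window without one lacks only those letters.

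The deposited MAS5 signals had a median of 53.4 to 65.4 on 5 arrays and of 37.7 on the array of transgenic replicate 2. On that array the 3′ over 5′ signal ratio of the beta-actin control was 122, against 1.11 to 1.81 elsewhere, and a high ratio is commonly read as a sign of shortened RNA. The Pcx control divided the arrays in another way, with low ratios (3.06 and 3.10) for wild type replicate 3 and transgenic replicate 1, and 14.1 to 52.0 in the rest. Each result on the members is therefore given with and without transgenic replicate 2. The comparison asks which of these RNAs differ between transgenic and wild type fat. In whole tissue, fewer cells of a type and less RNA per cell cannot be told apart.

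With all 6 arrays none of the 10 genes passed the test, and without transgenic replicate 2 the genes Lpcat3, Pcyt1a and Chka rose. Lpcat3, which puts polyunsaturated chains into phospholipids, was 5.33-fold higher in the 2 remaining transgenic arrays, Pcyt1a 1.74-fold and Chka, the first kinase of the choline branch, 2.03-fold. The other 7 genes did not pass in either fit. In numbers, limma called 0 of 25 tested member probe sets at an adjusted p under 0.05 with 6 arrays (0 also at an unadjusted p under 0.05), where 2.97% of all 27023 tested probe sets were called, 1.67% higher and 1.30% lower. Without transgenic replicate 2 it called 4 of 25 (16%), all higher in transgenic fat, against 13.2% of all probe sets, 6.96% higher and 6.23% lower. The share called in either direction is thus near that of the array as a whole. By gene, 0 of 10 passed with 6 arrays, where 3.77% of 13112 genes did. Without replicate 2, 3 of 10 rose and 0 fell, where 15.4% of all genes passed, 8.04% higher and 7.33% lower. With all 6 arrays weighted by their fit, 3 of 25 probe sets rose (Lpcat3 and the brightest of Pcyt1a and Chka) and 0 fell, against 12.4% of all tested, 7.07% higher and 5.36% lower. Replicate 2 had a weight of 0.0995 there, against 0.647 to 3.88 on the other arrays. That fit therefore nearly leaves it out and is not separate support. Without replicate 2 and with the class of Pcx ratio as a block, 5 rose and 2 fell, against 22.0% of all tested, 11.8% higher and 10.2% lower. The median log2 fold change of the members' 10 representative probe sets was −0.07 with 6 arrays and 0.06 with 5, beside −0.04 and 0.02 over all genes. The other 7 of the 32 member probe sets were too dim to be tested, with signals from 2.4 to 103.9.

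**Figure D1:**
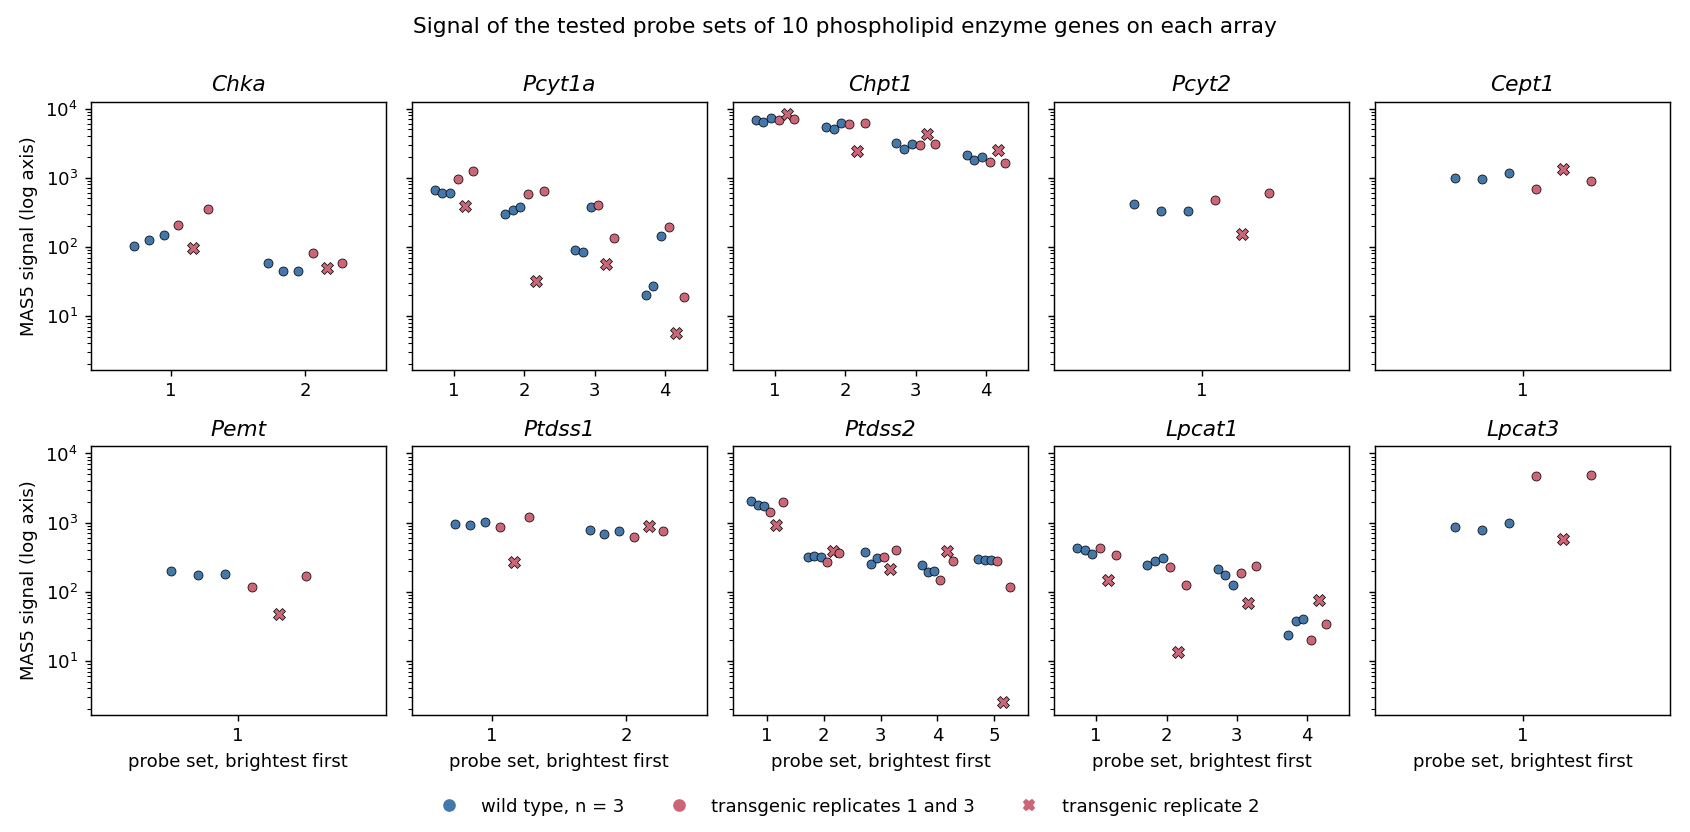
MAS5 signal (log axis) of each tested probe set on each of 6 arrays, by gene, with probe sets numbered from the brightest. Circles are wild type (blue, n = 3) and transgenic replicates 1 and 3 (red), and crosses are transgenic replicate 2, which lies below the other transgenic arrays for Lpcat3 (587.4 against 4678.2 and 4849.1) and above them for Cept1 (1328.2 against 691.1 and 904.1).

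Chka phosphorylates choline, and also ethanolamine, as the first step of both branches. Its brightest probe set gave signals of 103.3, 125.4 and 148.4 in wild type fat and 203.7, 96.8 and 355.7 in transgenic replicates 1, 2 and 3. Replicates 1 and 3 lay above every wild type array and replicate 2 below them. On the log2 scale the groups differed by 0.58 ± 0.44 SE (adjusted p = 0.551) with 6 arrays, and 1.02 ± 0.26 SE (adjusted p = 0.0335) without replicate 2. Within the classes of Pcx ratio it was uneven: transgenic replicate 1 exceeded wild type replicate 3 by 0.42, and transgenic replicate 3 exceeded the mean of wild type replicates 1 and 2 by 1.52. The second tested probe set, at 58.0, 44.4 and 44.0 in wild type and 81.0, 50 and 58.9 in transgenic fat, had 0.28 ± 0.24 SE, and 0.40 ± 0.25 SE without replicate 2 (adjusted p = 0.366). It therefore did not pass in either fit, and its wild type mean of 48.8 is low. An untested probe set read 46.6 and 56.2, respectively, in wild type replicate 3 and transgenic replicate 1, but at most 5.3 on the other arrays, the same division as in the Pcx ratio.

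Pcyt1a encodes the CTP-dependent enzyme that sets the rate of phosphatidylcholine synthesis. Its brightest probe set read 669.3, 594.0 and 608.1 in wild type and 966.4, 385.7 and 1240.9 in transgenic fat. The second read 298.6, 340.9 and 374.1 in wild type and 573.8, 32.4 and 637.2 in transgenic fat. On both, transgenic replicates 1 and 3 were the highest of the 6 arrays and replicate 2 the lowest. Their log2 fold changes were 0.31 ± 0.43 SE and −0.41 ± 0.96 SE with 6 arrays (adjusted p = 0.746 and 0.851). Without replicate 2 they were 0.80 ± 0.18 SE and 0.82 ± 0.19 SE (adjusted p = 0.0197 and 0.0199), so these separate probe sets gave nearly the same value. Within each class of Pcx ratio both probe sets were also higher in transgenic fat. That sign was fixed in advance, because transgenic replicates 1 and 3 exceeded every wild type array. Without replicate 2 each class holds 1 transgenic mouse. For the brightest probe set, transgenic replicate 1 exceeded wild type replicate 3 by 0.65 log2 units, and transgenic replicate 3 exceeded the mean of wild type replicates 1 and 2 by 0.96. For the second the differences were 0.60 and 0.96.

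The other probe sets of Pcyt1a followed a different pattern. The third read 90.6, 84.8 and 376.2 in wild type replicates 1, 2 and 3 and 401.3, 56.8 and 133.1 in transgenic fat. The fourth read 20.4, 26.9 and 142.9 in wild type and 194.6, 5.6 and 19.0 in transgenic fat. On both, wild type replicate 3 and transgenic replicate 1 were the highest arrays, which are the pair with a low Pcx ratio. The groups overlapped, and neither passed with 6 arrays (0.03 ± 0.77 SE and −0.21 ± 0.94 SE, adjusted p = 0.988 and 0.924) or without replicate 2 (0.63 ± 0.60 SE and 0.45 ± 0.78 SE, adjusted p = 0.569 and 0.770). The part of RNA quality in these readings was not tested.

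Chpt1, the transferase that completes phosphatidylcholine in the Golgi, was the brightest member, with wild type means of 6816 ± 411, 5557 ± 652, 2957 ± 313 and 1988 ± 169 (SD, n = 3) for its 4 probe sets. Its brightest probe set read 6717.6, 6463.9 and 7267.8 in wild type and 6897.7, 8407.3 and 7021.1 in transgenic fat. The groups overlapped on the values of replicates 1 and 3, and the log2 fold change was 0.12 ± 0.14 SE (adjusted p = 0.683) with 6 arrays, and 0.03 ± 0.12 SE without replicate 2 (95% interval −0.25 to 0.31). A change of the size seen for Chka lies outside that interval. The second probe set, at 5392.0, 5002.7 and 6275.4 in wild type and 5980.3, 2433.6 and 6203.2 in transgenic fat, turned in sign, from −0.30 ± 0.37 SE with 6 arrays to 0.14 ± 0.14 SE. The third went from 0.21 ± 0.21 SE to 0.03 ± 0.15 SE, and neither passed. The fourth, with 2161.7, 1824.0 and 1979.1 in wild type and 1675.7, 2482.0 and 1610.0 in transgenic fat, had −0.07 ± 0.23 SE with 6 arrays (adjusted p = 0.893) and −0.27 ± 0.15 SE without replicate 2 (adjusted p = 0.318).

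**Figure D2:**
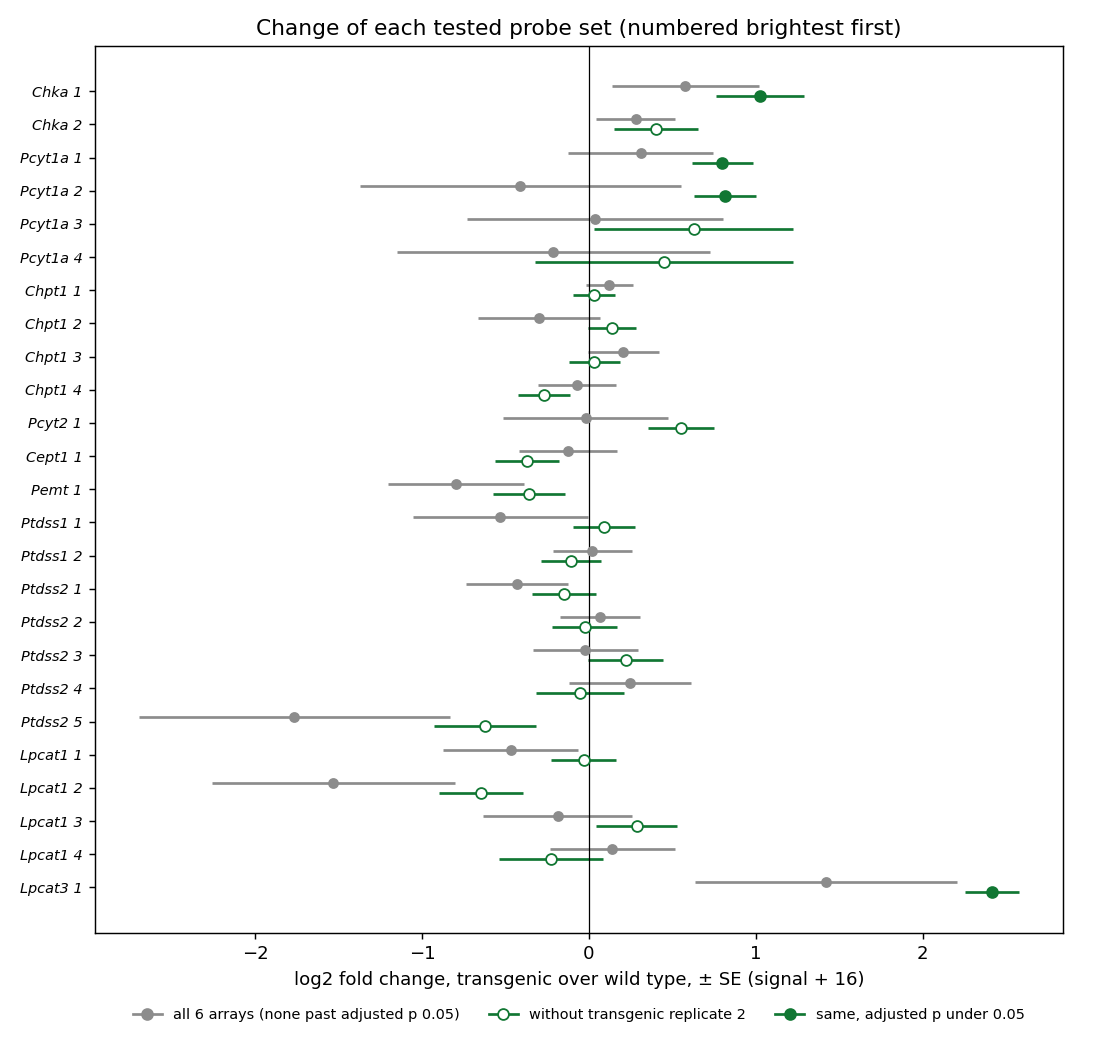
Log2 fold change (transgenic over wild type, signal + 16) with its SE for each tested probe set, numbered from the brightest of its gene. Grey points use all 6 arrays, of which none passed, and green points leave out transgenic replicate 2, filled where the adjusted p is under 0.05: Lpcat3 (2.41), the brightest of Chka (1.02) and the 2 brightest of Pcyt1a (0.80 and 0.82).

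Pcyt2 is the counterpart of Pcyt1a in the ethanolamine branch. It read 411.8, 330.6 and 334.3 in wild type and 473.8, 151.2 and 594.2 in transgenic fat. As for Pcyt1a, transgenic replicates 1 and 3 were the highest arrays and replicate 2 the lowest. In log2 terms the difference was −0.02 ± 0.50 SE (adjusted p = 0.990) with 6 arrays, and 0.55 ± 0.20 SE (adjusted p = 0.111, 95% interval 0.10 to 0.999) without replicate 2, which did not pass. It passed in that set of arrays after quantile normalization (0.54, adjusted p = 0.0313) or with the class of Pcx ratio as a block (0.59, adjusted p = 0.0263).

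Cept1, a transferase that acts on both activated bases, had the opposite order of arrays. It read 983.5, 943.5 and 1170.8 in wild type and 691.1, 1328.2 and 904.1 in transgenic fat, so that replicates 1 and 3 lay below every wild type array and replicate 2 above them. Its log2 fold change was −0.13 ± 0.29 SE (adjusted p = 0.849) with 6 arrays, and −0.37 ± 0.19 SE (adjusted p = 0.260) without replicate 2. Pemt, which methylates phosphatidylethanolamine to phosphatidylcholine and is known mainly from liver, read 201.5, 175.8 and 179.4 in wild type and 116.0, 47.2 and 170.2 in transgenic fat. All 3 transgenic arrays were below all 3 wild type arrays, by a narrow margin for replicate 3. The log2 fold change was −0.80 ± 0.41 SE (adjusted p = 0.391) with 6 arrays, and −0.36 ± 0.22 SE (adjusted p = 0.345) without replicate 2. The groups did not overlap for 3 of the 25 member probe sets, all lower in transgenic fat and none past the test, against 27.2% of all tested probe sets, which divides into 15.3% lower and 11.9% higher. Without replicate 2, the groups did not overlap for 11 of 25, 6 higher and 5 lower, against 42.6% of all tested, 22.3% higher and 20.3% lower.

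The serine exchange enzymes Ptdss1 and Ptdss2 make phosphatidylserine, Ptdss1 from phosphatidylcholine and Ptdss2 from phosphatidylethanolamine. Ptdss1 read 951.8, 919.7 and 1016.7 in wild type and 877.0, 269.8 and 1199.5 in transgenic fat on its brightest probe set. Transgenic replicates 1 and 3 lay on either side of the wild type arrays. Its log2 difference came to −0.53 ± 0.53 SE (adjusted p = 0.641) with 6 arrays, and 0.09 ± 0.19 SE (adjusted p = 0.811, 95% interval −0.33 to 0.51) without replicate 2. A second probe set, at 791.4, 689.1 and 758.6 in wild type and 625.8, 900.1 and 763.4 in transgenic fat, had 0.02 ± 0.24 SE with 6 arrays and −0.11 ± 0.18 SE without replicate 2, neither past the test. The brightest probe set of Ptdss2 read 2081.5, 1773.4 and 1750.6 in wild type and 1404.2, 927.4 and 2008.7 in transgenic fat, with −0.43 ± 0.31 SE (adjusted p = 0.528) with 6 arrays, and −0.15 ± 0.19 SE (adjusted p = 0.688) without replicate 2. Its next 3 probe sets had 0.07, −0.02 and 0.24 with 6 arrays and −0.03, 0.22 and −0.05 without replicate 2, so that each turned in sign, and none passed. All of these overlapped between the groups.

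The fifth tested probe set of Ptdss2 stood apart from the rest of its gene. It read 294.7, 290.4 and 288.1 in wild type fat, a spread of only 3.35 (SD, n = 3), and 282.2, 2.5 and 117.4 in transgenic replicates 1, 2 and 3. The log2 fold change of −1.77 ± 0.93 SE was the lowest of the members (adjusted p = 0.409), and without replicate 2 it was −0.62 ± 0.31 SE (adjusted p = 0.237). With the class of Pcx ratio as a block on the same 5 arrays it passed (−0.70, adjusted p = 0.0348). Transgenic replicate 1 differed from wild type by far less than replicate 3 did. Of the 5 tested probe sets of Ptdss2, 2 have names ending in x_at, a mark of probes that can bind other transcripts, and their values are uncertain in that respect.

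Lpcat3 and Lpcat1 acylate lysophosphatidylcholine, Lpcat3 with polyunsaturated chains and Lpcat1 mainly with saturated ones. The 1 probe set of Lpcat3 read 875.3, 791.7 and 984.8 in wild type fat and 4678.2, 587.4 and 4849.1 in transgenic replicates 1, 2 and 3. Replicates 1 and 3 were nearly equal and far above every wild type array, whereas replicate 2 was below them. The log2 fold change was 1.42 ± 0.78 SE (adjusted p = 0.428) with 6 arrays, and 2.41 ± 0.16 SE (adjusted p = 2.32e-05, 95% interval 2.05 to 2.78) without replicate 2. It was 2.23 between transgenic replicate 1 and wild type replicate 3, and 2.52 between transgenic replicate 3 and wild type replicates 1 and 2. The shared sign in the 2 classes of Pcx ratio follows from replicates 1 and 3 both exceeding every wild type array. Without replicate 2 each class holds 1 transgenic mouse. Array weights, which came to 0.0995 for replicate 2, gave 2.34 (adjusted p = 0.000841). The rise rests on 2 transgenic mice.

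Lpcat1 did not pass with 6 arrays or, without a block, with 5. Its brightest probe set read 424.0, 407.1 and 354.8 in wild type and 432.1, 146.1 and 343.3 in transgenic fat, with −0.47 ± 0.40 SE (adjusted p = 0.595) with 6 arrays, and −0.03 ± 0.19 SE (95% interval −0.47 to 0.41) without replicate 2. The second read 245.4, 279.5 and 306.7 in wild type and 227.9, 13.5 and 127.1 in transgenic fat, all below the wild type arrays. It had −1.53 ± 0.73 SE (adjusted p = 0.361) with 6 arrays, and −0.64 ± 0.25 SE (adjusted p = 0.139) without replicate 2. With the class of Pcx ratio as a block on those 5 arrays it passed (−0.72, adjusted p = 0.0129). The third turned from −0.19 ± 0.45 SE with 6 arrays to 0.29 ± 0.24 SE without replicate 2, and the fourth, a dim one, from 0.14 ± 0.38 SE to −0.23 ± 0.31 SE. The probe sets of Lpcat1 thus differed in sign among themselves. Whether Lpcat3 and Lpcat1 differ in their response was not tested.

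The array of transgenic replicate 2 did not shift all members one way. Of the 25 tested probe sets, 17 were lower there than in both other transgenic arrays and 8 were higher. On the log2(signal + 16) scale the difference ran from −3.68 for the second probe set of Pcyt1a to 1.10 for the fourth of Lpcat1, with a median of −1.31, against −0.30 over all tested probe sets. Probe sets of the same gene went both ways. For Chpt1, 3 were higher by 0.27, 0.52 and 0.59 and 1 lower by 1.32 log2 units. For Ptdss1 the brightest was at −1.87 and the other at 0.37. Replicate 2 was the lowest of all 6 arrays in 16 cases and the highest in 8. None of these counts was made over all tested probe sets, so they cannot be read as particular to the members. The part of RNA length in these differences was not tested.

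**Figure D3:**
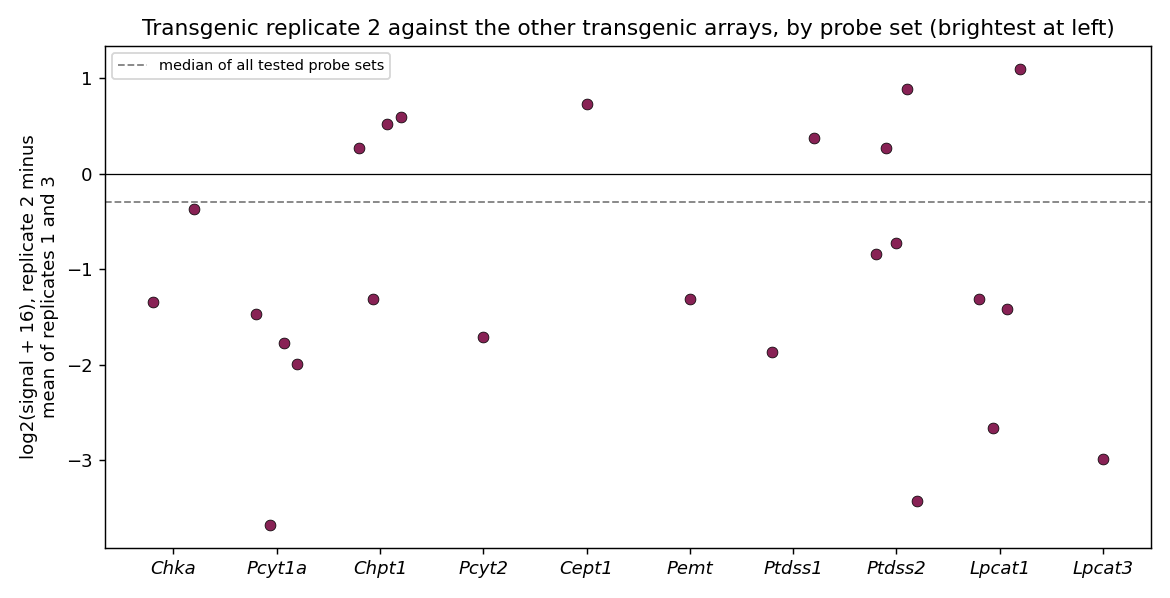
Difference in log2(signal + 16) between transgenic replicate 2 and the mean of transgenic replicates 1 and 3, 1 point per tested probe set, arranged by gene with the brightest at left. The dashed line is the median of all tested probe sets (−0.30), and the points of Chpt1, Ptdss1, Ptdss2 and Lpcat1 lie on both sides of 0.

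Among the brightest probe sets of all 13112 genes, those closest to Lpcat3 in pattern were Syngr1, Angptl8 and Amdhd2. Likeness was the mean absolute difference between log2 values centred on the mean of 6 arrays, and was 0.12, 0.14 and 0.19. Angptl8, which encodes a secreted inhibitor of lipoprotein lipase, read 130.3, 119.4 and 132.3 in wild type and 656.6, 50.3 and 677.6 in transgenic fat. Syngr1, a vesicle membrane protein gene, read 93.1, 85.6 and 117.3 and then 545.4, 76.1 and 717.2. All of these were high in transgenic replicates 1 and 3 alone. That was fixed in advance, because they were chosen for likeness to Lpcat3. The 6 arrays compared include transgenic replicate 2, so its values were part of the match.

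Around the 10 members, 48 further genes of phospholipid metabolism were listed, of which 42 were tested. With 6 arrays 4 rose, 0 fell and 38 did not pass. Of the 4, 3 belong to a list of 16 genes that make or use phosphatidic acid, CDP-diacylglycerol, inositol or glycerol phospholipids and cardiolipin, where 3 of 16 rose: Agpat4, which acylates lysophosphatidic acid, Cds1, a CDP-diacylglycerol synthase, and Crls1, cardiolipin synthase. The fourth was Abhd4, a lipase of N-acylated phospholipids, in a list of 12 phospholipases and related genes. The shares over all genes were 2.23% higher and 1.54% lower. The median log2 fold change of the 42 was 0.20.

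Agpat4 read 347.5, 482.4 and 486.4 in wild type and 2772, 1222.1 and 3189.3 in transgenic fat, so every transgenic array was above every wild type one. Its rise was 2.31 ± 0.40 SE (adjusted p = 0.0335, at most 0.170 on leaving out an array). Cds1 read 146.4, 114.8 and 123.4 and then 298.6, 526 and 435.4, which is a rise of 1.57 ± 0.28 SE (adjusted p = 0.0374, at most 0.226). Crls1 read 655.8, 765 and 771.3 and then 1544.8, 1701 and 1810, with a narrow spread in both groups and a rise of 1.19 ± 0.21 SE (adjusted p = 0.0336, at most 0.202). Abhd4 read 1989.5, 1625.9 and 1745.4 and then 3797.6, 4505.6 and 5071.2, a rise of 1.31 ± 0.19 SE (adjusted p = 0.0185, at most 0.135). These 4 probe sets were above wild type on transgenic replicate 2 as well, whereas the second probe sets of Agpat4 (221.1) and Abhd4 (267.5) were below every wild type array there. Leaving out wild type replicate 1, 2 or 3 or transgenic replicate 3 ended all 4 calls, and leaving out transgenic replicate 1 kept 3 of them. With 6 arrays, the class of Pcx ratio as a block left 1 (Abhd4, the other 3 at adjusted p = 0.0515 to 0.0611), the replicate number as a block 0, and median centring 2 (Agpat4 and Abhd4). A second tested probe set of each of the 4 genes did not pass with 6 arrays and passed, in the same direction, without replicate 2. Those used for Agpat4 and Abhd4 end in x_at.

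No other gene of the choline and ethanolamine branches passed (0 of 5 tested, with or without replicate 2). Etnk1, an ethanolamine kinase, had the largest change, 0.55 ± 0.27 SE (adjusted p = 0.376). The same was true with 6 arrays of the 5 other acyltransferases and the 4 genes that move choline into sphingomyelin or release it. Lpgat1, an acyltransferase for lysophospholipids, had −0.89 ± 0.20 SE (adjusted p = 0.0722), from signals of 4307.8, 3489.6 and 4002.6 to 1820.4, 2538.8 and 2030.6. Smpd1, acid sphingomyelinase, had −1.47 ± 0.55 SE (adjusted p = 0.252). Both passed without replicate 2, at −1.02 (adjusted p = 0.00236) and −0.81 (adjusted p = 0.0123). A second, dimmer probe set of Smpd1 did not pass (0.0025 without replicate 2, adjusted p = 0.995).

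Without replicate 2, 12 of the 42 rose and 3 fell, where 8.04% of all genes rose and 7.33% fell. Some of these are named here after their values were seen. In the list around phosphatidic acid and cardiolipin 7 of 16 rose, with Agpat2 (log2 fold change 1.001), Agpat3 (1.73-fold), Lpin2 (1.84-fold) and Pgs1 (1.99-fold) besides those above. In the list of phospholipases and related genes 5 of 12 rose. They included Pla2g15, the lysosomal phospholipase A2, at 3.40-fold, and Pla2g7, which degrades platelet-activating factor, at 2.85-fold. Pld3 was at 2.45-fold and Gdpd1 at 2.47-fold. With replicate 2 included, Pld3 turned in sign (log2 fold change −0.25, adjusted p = 0.932). It read 55.8 on that array and 611.6 to 761.1 in wild type. Pla2g15 (170.9), Pla2g7 (173.4), Pgs1 (161.4) and Agpat3 (863.7) also read below every wild type array there. Their adjusted p with replicate 2 was 0.726, 0.610, 0.906 and 0.715. On replicate 2, Agpat2 (5998.7) and Lpin2 (545.4) lay above every wild type array and Gdpd1 (49.3) among them. Plaat3, an abundant phospholipase of fat cells, fell (log2 fold change −0.74).

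**Figure D4:**
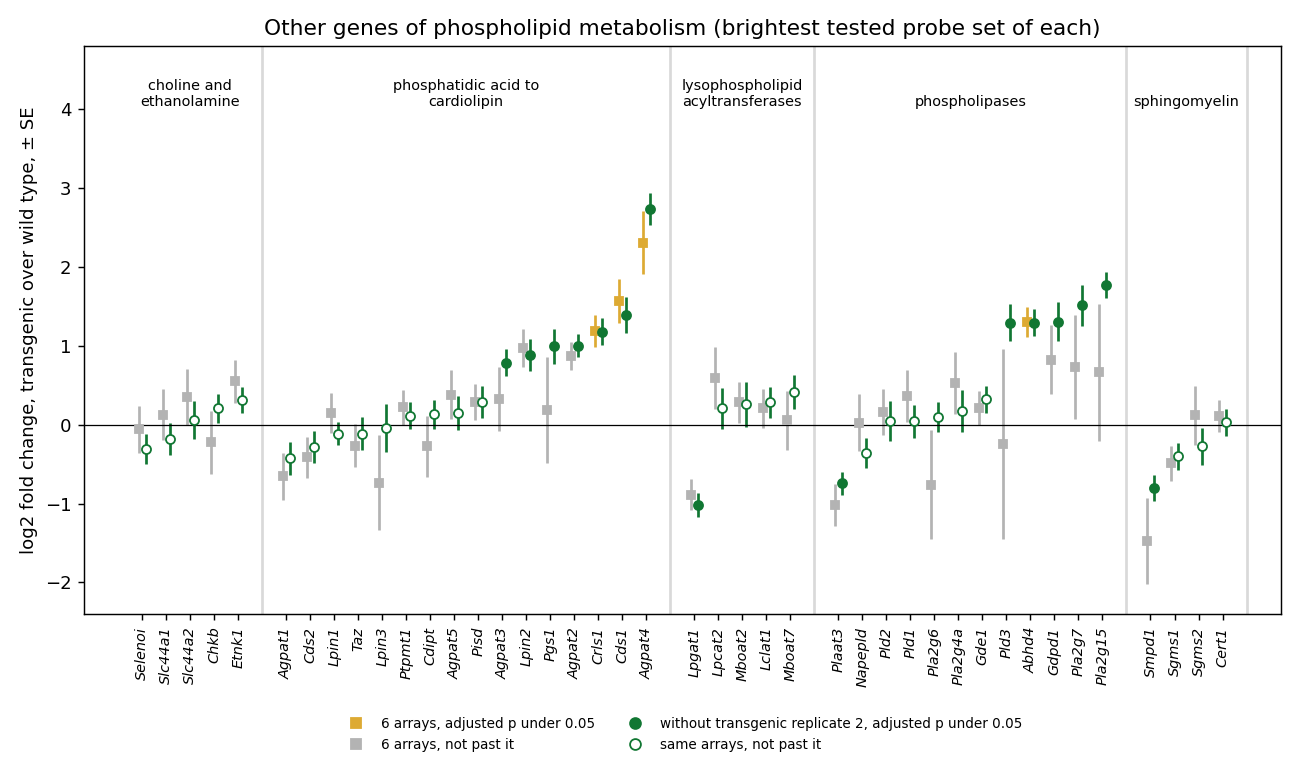
Log2 fold change (transgenic over wild type, with SE) of 42 other genes of phospholipid metabolism, by list. Squares use 6 arrays, gold where the adjusted p is under 0.05 (Agpat4, Cds1, Crls1, Abhd4), and circles leave out transgenic replicate 2, filled where it is under 0.05 (12 higher, 3 lower).

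Summed signals of macrophage, adipocyte, endothelial and mesothelial markers did not overlap between the groups, and those of hepatocyte markers did. Over all genes 2.23% rose and 1.54% fell with 6 arrays, and 8.04% and 7.33% without replicate 2. Of 12 macrophage markers 2 rose and 0 fell with 6 arrays (7 and 0 without replicate 2), and their summed signal was 15854 to 19371 in wild type and 31921 to 43443 in transgenic fat. That sum is carried by its brighter genes, and on transgenic replicate 2 some dimmer macrophage markers read below every wild type array. Adgre1, the gene of F4/80, had 1.67 ± 0.33 SE (adjusted p = 0.0516) and Lyz2, the lysozyme gene, 0.51 ± 0.13 SE (adjusted p = 0.0967). Of 11 adipocyte markers tested 2 fell and 0 rose (7 and 1 without replicate 2), with a summed signal of 72518 to 80355 in wild type and 36008 to 53131 in transgenic fat. Adipoq fell by 0.93 (SE 0.18, adjusted p = 0.0448), and Fabp4 was at 12376.4 to 14121.1 on all arrays. The summed signal of 8 endothelial markers was 7659 to 8159 in wild type and 1925 to 5814 in transgenic fat, with 0 of 8 past the test (5 lower without replicate 2). For 4 mesothelial markers it was 3595 to 4272 and 496.9 to 1402, and 2 fell, and none of the listed epididymal genes was tested. For 3 hepatocyte markers it was 8053 to 9854 and 6811 to 8143, and 0 passed. Nearly all of that sum is Cyp2e1, at 7817.5, 7858.9 and 9602.4 in wild type and 7973.8, 6585.7 and 7872.2 in transgenic fat. Alb read 125.2 to 220.2 over the 6 arrays. The overlap of the sum is therefore mainly that of Cyp2e1, and it does not show liver cells in this fat. No adipocyte, macrophage or endothelial marker that was tested was at 0 on any array. Some were under the offset of 16 on transgenic replicate 2, as low as 6.6 for Pecam1, and such signals are close to background. The part of these cell type differences in the values of Lpcat3, Pcyt1a, Chka and the other genes was not tested.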

How the data were processed

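Total RNA of 6 mice was measured on 6 arrays. The authors deposited 1 linear signal intensity per probe set and array, made with MAS5 per the submitters' processing notes (version and scaling target not given in the sources used here). MAS5 signals near or below the offset of 16 are close to background, and the number of arrays limits the precision. There are 0 columns of other samples. Of 45101 probe sets, 34958 have 1 gene in the platform annotation, 932 several and 9211 none, and only the first were named.

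The log2 of signal + 16 was compared between groups with limma 3.58.1 (lmFit, eBayes with trend) in R 4.3.3, two-sided, without further normalization, after leaving out 64 control probe sets and the 40% with the lowest mean over all 6 arrays. P-values were adjusted by Benjamini-Hochberg over the 27023 probe sets that remained and called under 0.05. Each adjusted p is limma's. On this scale, log2(signal + 16), the fold changes of dim genes come out too small. For counts by gene, the brightest tested probe set stood for the gene. The test was checked on simulated data whose spread came from the fit without transgenic replicate 2. That check therefore does not cover fits that hold this array. Promoter windows and figures were made in Python 3.11.15 with pandas 2.3.3 and matplotlib 3.10.9. Promoters were found for 8 of 10 members.

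The members and lists were chosen with earlier results of these data known. All members are named, and of the other lists each gene past the threshold or, where none passed, the one with the largest change. Of each marker list at most 2 genes could be named, the first of the list and the brightest in wild type. Alternatives were other offsets (1 and 64), filters, scalings and variance models, weights per array, a replicate block, and each array left out. A block for the Pcx 3′ over 5′ ratio, divided at 10, was added after seeing the data. Each array is 1 mouse, and the spread behind a p-value holds both mouse and handling.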

Additional observations from a re-analysis of the deposited data

How the results depend on the processing

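With 25 member probe sets tested, the count past the threshold was 0 with 6 arrays and stayed 0 with other offsets, filters, scalings between arrays and variance models, and with the replicate block. It was 3 with array weights (3 genes), in a fit that called 12.4% of all tested probe sets. With 1 array left out it was 0 to 4 (0 to 3 genes). Only leaving out transgenic replicate 2 gave a count above 0, and that fit called 13.2% of all. It was 5 without that replicate after quantile normalization (4 genes), in a fit that called 4976 of all 27023. It was 7 without that replicate and with the Pcx class as a block (4 genes). The latter 7 included 2 lower ones, the fifth probe set of Ptdss2 (−0.70, adjusted p = 0.0348) and the second of Lpcat1 (−0.72, adjusted p = 0.0129), in a fit that called 5937 of all probe sets. The 4 other phospholipid genes past the threshold, of 42 tested, became 0 to 15 with 1 array left out. They were 0 without any 1 wild type array or transgenic replicate 3, and 15 without transgenic replicate 2, where 15.4% of all genes passed. They were 2 after median centring, 1 with the Pcx class as a block, 12 with array weights, and 15 without replicate 2 in both combined fits. For the weighted and combined fits, calls over the whole array were counted by probe set only. The 6 cell type markers past the threshold became 1 to 23 with 1 array left out, 3 without a filter, 3 with the Pcx class, 18 with array weights and 25 in both combined fits. With the replicate block 0 members, 0 other genes and 1 marker passed, and 341 of all probe sets did, against 802 without it. The values gave no sign that the replicate numbers pair the mice: the correlations of deviations were −0.37, 0.09 and −0.05, and 1 of 6 samples correlated best with its own number. These deviations also hold the array of transgenic replicate 2 and the division by Pcx ratio, so they cannot exclude a pairing.

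Signs of log2 fold changes turned for members that did not pass with 6 arrays, and the cause was not tested. The lowest and highest values with 1 array left out were −0.37 and 0.091 for Cept1, −0.38 and 0.55 for Pcyt2, −0.95 and 0.091 and −0.11 and 0.15 for the probe sets of Ptdss1, −0.53 and 0.14 and −0.27 and 0.040 for the second and the fourth of Chpt1. They were −0.025 and 0.80, −1.06 and 0.82, −0.63 and 0.67 and −1.19 and 0.46 for the 4 of Pcyt1a, −0.025 and 0.21, −0.23 and 0.22 and −0.051 and 0.60 for the second to the fourth of Ptdss2, and −0.50 and 0.29 and −0.23 and 0.45 for the third and the fourth of Lpcat1. Array weights gave 0.56 for Pcyt2, 0.68 and 0.10 for the second and the fourth of Pcyt1a, 0.11 and −0.0038 for Ptdss1, 0.14 for the second of Chpt1, 0.33 for the third of Ptdss2, and 0.24 and −0.11 for the third and the fourth of Lpcat1. Without replicate 2, with quantile normalization or the Pcx class block in turn, these were 0.54 and 0.59, 0.81 and 0.81, 0.45 and 0.074, 0.057 and 0.11, −0.13 and −0.090, 0.043 and 0.12, 0.20 and 0.25, 0.29 and 0.36, and −0.29 and −0.22. The former also gave −0.078 and −0.057 for the first and the third of Chpt1 and −0.044 and −0.078 for the second and the fourth of Ptdss2. With 6 arrays, quantile normalization gave 0.19 for Pcyt2, 0.15 for the third of Ptdss2, −0.012 for the first of Chpt1 and 0.039 for the third of Lpcat1. Median centring gave 0.10 for Pcyt2 and the third of Ptdss2 and 0.047 for the fourth of Chpt1, and an offset of 64 gave 0.0089 for Pcyt2. Signal over background limits the dim probe sets, and 2 transgenic arrays limit each value without replicate 2.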
